A study of Mus musculus with 48 samples.

Results

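Peak lists of m6A-IP libraries from 3 KI mice trained at 8 months of age (animals TR-231, TR-241 and TR-294) were set against those from 3 WT mice trained at the same age (animals TR-220, TR-230 and TR-246). These are 6 of the 24 m6A-IP samples of the series, which holds 48 libraries in all, because each m6A-IP library has the input library of the same animal beside it. KI mice are heterozygous Hdh+/Q111 males, which carry an expanded CAG tract in 1 copy of the mouse huntingtin gene, and WT mice are HdhQ7/Q7 males. Both were bred on the C57BL/6 background as littermates, and every animal of both genotypes was at 8 months of age. All 6 had explored an arena with a pair of identical objects for 10 min, the training of the object location task, and were killed 30 min later. RNA of the whole hippocampus was used, so fewer cells of a type and less marked RNA per cell cannot be told apart. Naive mice of both genotypes at 8 months, and trained and naive mice at 5 months, gave the other 18 lists, with 3 animals in each group.

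N6-methyladenosine, or m6A, is a methyl mark on adenosines inside messenger RNAs. It is written by the METTL3 and METTL14 complex, mostly at adenosines that follow GG or GA and precede C, can be removed by FTO and ALKBH5, and is read by YTH-domain proteins that change splicing, export, translation or decay. In neurons the mark is known to sit on many synaptic transcripts and to take part in memory formation. Huntingtin with a long polyglutamine tract, the product of the KI allele, causes Huntington's disease in people, and the mice lose hippocampus-dependent memory with age. In m6A-IP, fragmented RNA is pulled down with an antibody, and a peak is a stretch where the pulled-down library exceeds the input. The fold enrichment printed with each peak is the height over input at its summit, so it describes the marked share of a transcript together with the antibody background, and not the RNA level.

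The letters GGAC are the core of the usual m6A site, and they were looked for on the strand of the gene within 50 bases of the summit on either side. The windows below come from regions described in the results, and each shows the GGAC nearest to the summit in capitals, read from the mouse genome build NCBIM37, which is mm9. Only regions with a GGAC could be shown. Other regions described below, among them the intronic ones of Htt, Nrxn3 and Ptprf, had none in their window. The first 3 regions had a peak in all KI and no WT trained animal.
Cux2, 5'UTR, chr5:122493835-122493863, minus strand: tctctttcagtgGGACtgttagtattctc
Rnf207, intron, chr4:151692991-151693019, minus strand: cagtgtagtctgGGACcctcaccatgcac
Klf11, CDS, chr12:25338423-25338451, plus strand: ggctgacatcatGGACatttgtgagtcga
The next 5 had a peak in all WT and no KI trained animal, and 2 of them lie in introns of genes of synaptic transmission or adhesion.
Rnf152, 3'UTR, chr1:107174605-107174633, minus strand: tgttggctaggtGGACttagccatcccat
Cyth1, intron, chr11:118065804-118065832, minus strand: gctaatatacatGGACtagcaaggaggtg
Erbb4, intron, chr1:68612506-68612534, minus strand: ggcaataatgaaGGACagaaagaagaaag
Rims2, intron, chr15:39215751-39215779, plus strand: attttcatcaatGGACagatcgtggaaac
Cadm2, intron, chr16:66935411-66935439, minus strand: atacagagacagGGACgcacagaggcaga
The last 4 had a peak in at least 5 of the 6 animals and are described for their fold enrichment, the Htt one for the mutated gene.
Rfesd, 5'UTR, chr13:76155933-76155961, minus strand: cagggagcgtttGGACcctcgtggactgg
Frmd4b, 3'UTR, chr6:97237503-97237531, minus strand: tgctaacagaaaGGACcccagaggacaaa
Syt9, CDS, chr7:114579903-114579931, plus strand: acagaggtcactGGACaacgacgatgggc
Htt, 3'UTR, chr5:35251603-35251631, plus strand: cttgtgtcaagtGGACagccaggcaatgg
GGAC stood in 28.6% of the windows of regions called only in KI and in 31.4% of those called only in WT, against 36.0% of the regions called in 3 of the 6 animals across both genotypes, 47.4% of those called in all 6 and 39.5% of all regions with a peak. On the opposite strand, which the mark of the gene's RNA cannot use, the shares were 26.8%, 18.6%, 27.7%, 26.0% and 25.6% in the same order of sets. A match is a description of the sequence and does not locate a methylated base.

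The lists held 32461, 38193 and 30550 peaks in the KI trained animals, against 32937, 37231 and 43557 in the WT trained animals. The means were 33735 ± 3980 and 37908 ± 5340 peaks (SD, n = 3 each), and the genotypes overlapped (exact two-sided permutation test, p = 0.4). With 3 animals against 3 that test cannot give a p below 0.1. KI animal TR-241 and WT animal TR-246 stood apart from the rest, with median peak widths of 202 and 233 bases and median -log10 p of 9.46 and 10.3. In the other animals the widths were 338 to 446 bases and the median -log10 p was 13.5 to 16.6, so results are also given without this pair. The files give no read totals, so the depth behind each list is unknown. Peaks were merged over all 24 animals into 81807 regions, of which 53134 held a peak in at least 1 of the 6 trained animals and 18133 in all 6.

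The first question was whether m6A enrichment at shared regions differed between KI and WT mice after training. Across the 18133 regions with a peak in all 6 animals, 0 (0% of those tested) passed an adjusted p of 0.05 in a limma fit of the log2 fold enrichment, and the smallest adjusted p was 0.999. At an unadjusted p under 0.05 there were 828 regions, 4.57% of those tested, of which 430 were higher and 398 lower in KI. The median residual SD between animals of a genotype was 0.369 on the log2 scale. In simulated data with this spread, the fit found 4% of planted log2 differences of 0.5 and 40% of those of 1. Differences of that size can therefore be missed. Without animals TR-241 and TR-246 the count stayed at 0 of 20130 regions, with a smallest adjusted p of 0.701.

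None of the following regions passed the test (adjusted p of 0.999 in limma for each), and they are named only because their unadjusted p was smallest in each direction. Zfp57, a zinc finger protein that keeps DNA methylation at imprinted genes, had an intronic region with fold enrichments of 9.43, 10.7 and 9.01 in the KI animals, against 2.29, 4.03 and 3.44 in the WT animals. The groups did not overlap there, and the log2 difference was 1.6 ± 0.31 (SE, limma adjusted p = 0.999). At a CDS region of Zc3h3, a zinc finger protein of messenger RNA export, the KI animals had 13.2, 9.07 and 5.23 and the WT animals 2.60, 2.88 and 3.41. Lass1, which encodes a ceramide synthase of neurons, had 6.09, 6.80 and 7.56 in KI animals, against 3.78, 2.68 and 1.85 in WT animals, in its CDS. Fut11, a fucosyltransferase gene, and 1700086L19Rik completed the 5 on this side, with log2 differences of 1.31 ± 0.31 and 1.12 ± 0.24. In the other direction, the 5'UTR region of Rfesd whose GGAC window is printed above had 4.5, 5.59 and 6.84 in KI animals, against 14.9, 15.9 and 12.6 in WT animals. The 3'UTR region of Frmd4b, a FERM-domain scaffold gene, had 4.14, 4.43 and 4.73 in KI animals, against 10.0, 9.63 and 10.8 in WT animals. In these 2 regions too the groups were fully apart, with log2 differences of -1.38 ± 0.31 and -1.2 ± 0.29. Choice by smallest p favours such separation, and its share over all tested regions was not counted. Dis3l2, an exoribonuclease that degrades uridylated RNAs, had an intronic region at 4.76, 3.65 and 6.44 in KI animals and 12.7, 11 and 13.1 in WT animals. Tgfbr3, a TGF-beta co-receptor gene, and Dgkg, a diacylglycerol kinase gene, differed by -1.35 ± 0.31 and -1.09 ± 0.24.

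**Figure D1:**
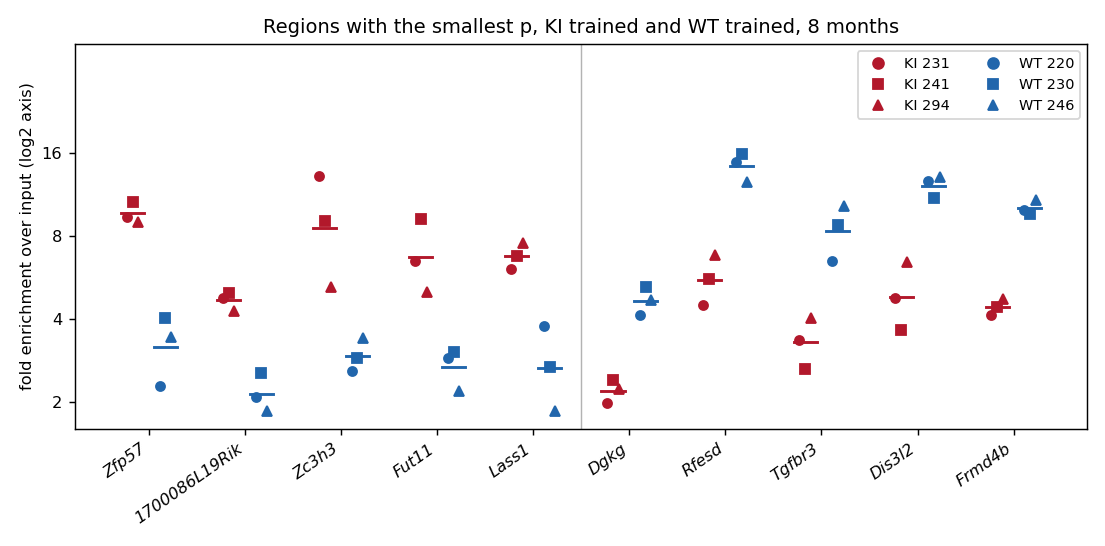
Fold enrichment over input (log2 axis) of the 10 regions with the smallest unadjusted p, in the 3 KI trained animals (red) and the 3 WT trained animals (blue), with bars at the geometric mean. The genotypes do not overlap in any of the 10, as the choice by smallest p favours, and none passed the adjusted threshold across 18133 regions. The share of all regions without overlap was not counted.

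Immediate-early genes, which neurons switch on within minutes of activity, carried peaks in every trained animal. Of 38 listed, 37 had a peak in each of the 6 animals. Of all 12350 genes with a region, 10070 to 10946 had a peak per animal, and all 24 glutamate receptor genes had one in each. Of the 61 tested regions of immediate-early genes, 0 passed the test, with 1 higher and 0 lower in KI at an unadjusted p under 0.05. Their median log2 difference was 0.02, beside 0.01 over all 18133 regions. The fold enrichment at Arc, the gene of a synaptic scaffold protein made after learning, was 2.90, 2.05 and 2.98 in KI animals, against 2.37, 2.96 and 2.86 in WT animals, at its strongest region in the 3'UTR. Npas4, an activity-dependent transcription factor gene, had 8.44, 8.54 and 5.37 in KI animals, against 5.71, 6.10 and 7.37 in WT animals, in its CDS. These 2 genes were picked for their role after the values had been seen, and in both the genotypes overlapped. Atf3, a stress-inducible transcription factor gene, was the 1 region with an unadjusted p under 0.05, at 8.92, 8.64 and 7.94 in KI animals and 5.31, 4.11 and 6.07 in WT animals (log2 difference 0.73 ± 0.29, limma adjusted p = 0.999).

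Genes of CREB and TrkB signalling, the pathway from neurotrophin and cAMP to activity-dependent transcription, had no region past the threshold. Of their 52 tested regions in 28 genes, 18 (34.6%) were higher in KI, beside 51.2% of all regions, and the median log2 difference was -0.08. At an unadjusted p under 0.05, 0 were higher and 4 lower, beside 430 higher and 398 lower among all 18133 regions. Both genes given next were picked after their values were seen, for an unadjusted p under 0.05. At an intronic region of Ntrk3, the receptor gene for neurotrophin-3, fold enrichment was 7.54, 4.86 and 6.33 in KI animals, against 19.6, 11.5 and 11 in WT animals (log2 difference -1.15 ± 0.34, limma adjusted p = 0.999). Adcy8, a calcium-stimulated adenylyl cyclase gene, had 5.21, 5.25 and 5.06 in the 5'UTR of KI animals and 6.41, 12.6 and 8.53 in WT animals. Every KI value lay below every WT value at both regions, as the choice by small p favours. The share of all regions so separated was not counted. In the authors' mean levels, described below, Adcy8 also had a listed peak higher in KI by more than 1. It was the 1 such gene among the 20 of this list with a listed peak. Likewise 1 gene, Camk1d, had a listed peak higher in WT by more than 1.

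Synaptic and channel lists had medians at or just below 0. Glutamate receptor genes had a median log2 difference of -0.02 over 96 regions, postsynaptic genes -0.01 over 151, presynaptic genes -0.02 over 131, voltage-gated channels -0.01 over 156 and synaptic adhesion genes -0.06 over 160. Genes of the m6A machinery had 0.09 over 30 regions, with 0 at an unadjusted p under 0.05. Among the machinery genes, FTO's own transcript had a CDS peak of 2.48, 3.89 and 3.21 in KI animals, against 3.31, 2.78 and 2.44 in WT animals, and the groups overlapped.
Markers of hippocampal cells were among the transcripts with peaks, which shows only that these RNAs were pulled down. KI animals had peaks in 6 to 7 of 8 CA1 markers and 9 to 10 of 13 dentate gyrus markers, against 6 to 7 and 9 to 10 in WT animals. Oligodendrocyte markers had a median log2 difference of 0.11 over 19 regions, oligodendrocyte precursor markers 0.15 over 16, astrocyte markers 0.05 over 15 and microglia markers -0.16 over 7. None of these regions passed the test, and the part of cell composition in any result was not tested.

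A second question was which regions were called in every animal of 1 genotype and in no animal of the other. A peak in every KI animal and in no WT animal was found at 65 regions, 0.122% of the 53134 with a peak, and the opposite at 311 regions, 0.585%. Regions called only in WT thus made up 82.7% of both sets together. The imbalance moved with the length of the peak lists. When the 30550 peaks of lowest p were taken from each animal, 160 regions were called only in KI and 163 only in WT, so that 50.5% were WT only. Of the original sets, 38 and 107 regions were among these. Without animals TR-241 and TR-246, 668 regions had a peak in both remaining KI animals and neither WT animal, and 1228 the other way, or 64.8% WT only. Both directions of call therefore existed under each setting, while the excess of WT-only calls was lost with lists of equal length.

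**Figure D2:**
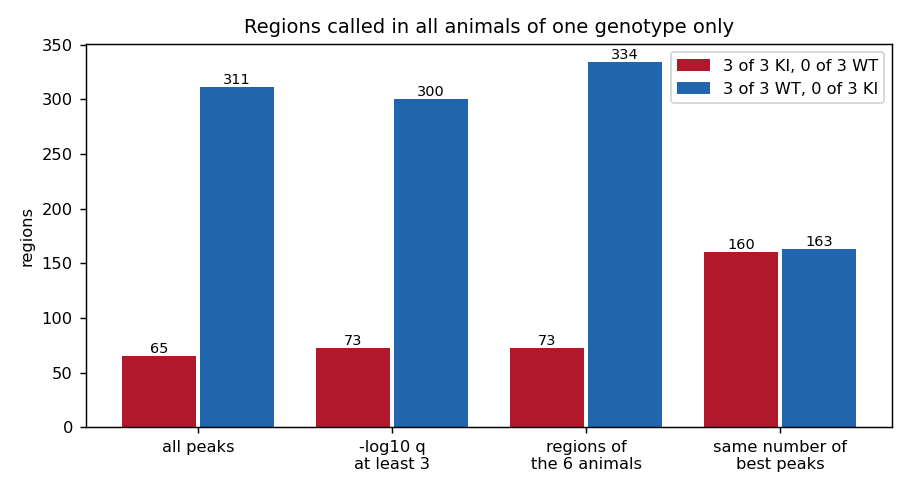
Number of regions called in all KI and no WT trained animals (red) and in all WT and no KI trained animals (blue), with all peaks, with a stricter q, with regions merged over the 6 animals, and with equally long lists. The 65 against 311 of all peaks become 160 against 163 with lists of 30550 peaks.

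Of the regions called only in KI that lie in a protein-coding gene, the 10 with the highest fold enrichment by their lowest KI value are given. Regions outside genes were not ranked, and some had higher values. Ptprf, which encodes the receptor phosphatase LAR of synapses, had an intronic peak with fold enrichments of 8.98, 12.6 and 13.7 in KI animals and no peak in WT animals. Smad1, the transducer of bone morphogenetic protein signals, had an intronic peak at 7.96, 11.8 and 8.74, and Cux2, a transcription factor gene of dendrite growth, had a 5'UTR peak at 6.89, 8.75 and 7.15. The other members of the 10 were introns of Ccdc122 (5.84 to 9.39), Rnf207 (5.77 to 7.98), Cgn, a tight-junction gene (5.50 to 6.71), 9030617O03Rik (5.27 to 8.64) and 3110057O12Rik (5.02 to 7.37), and the CDS of the keratin gene Krt9 (5.03 to 5.63) and of the transcription factor gene Klf11 (4.88 to 7.39). Of the naive mice of the same age, 3 KI and 1 WT had the Smad1 peak, while 0 KI and 2 WT had the Ccdc122 peak, so the calls of the trained mice did not carry over at every region.

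The 10 regions called only in WT were chosen in the same way among those in protein-coding genes, by their lowest WT value. Nrxn3, a presynaptic adhesion gene, had an intronic peak with no call in KI trained animals and 7.07, 9.04 and 7.48 in WT trained animals. Erbb4, the neuregulin receptor gene of interneurons, had no peak in the KI animals and 6.02, 10.5 and 8.7 in the WT animals at an intronic region. Mab21l2 had a 3'UTR peak that was absent from the lists of KI animals, against 8.89, 11.8 and 6.03 in WT animals. The gene lies inside Lrba, and peaks carry no strand, so the transcript behind that peak is uncertain. The other members of the 10 were introns of Senp7, a SUMO protease gene (6.81 to 9.06 in WT animals), Cyth1, an exchange factor gene of Arf proteins (6.38 to 9.54), Amz1 (6.20 to 10.7), Agbl4, a tubulin deglutamylase gene (6.14 to 9.45), and Iqub (6.07 to 9.42), and 3'UTRs of Rnf152, a lysosomal ubiquitin ligase gene (6.58 to 9.94), and Tmem194 (6.28 to 7.35). The Nrxn3 region was called in 3 of 3 naive KI animals and 2 of 3 naive WT animals at 8 months, and in all 12 animals of 5 months. It was thus missing from the KI lists only after training at 8 months, a description of calls and not a test of a change.

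**Figure D3:**
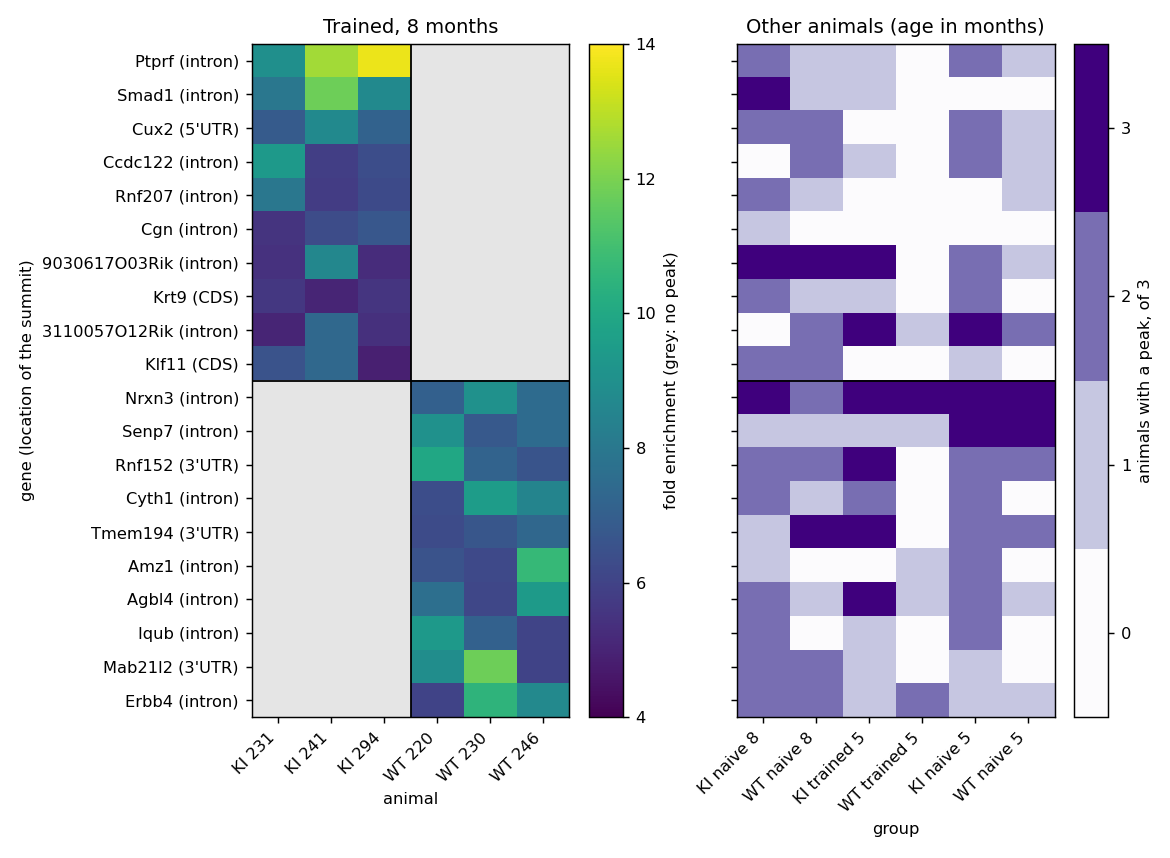
Left, fold enrichment in each trained 8-month animal of the 10 KI-only regions (upper block) and 10 WT-only regions (lower block) in protein-coding genes with the highest fold enrichment by their lowest calling animal, grey where no peak was called. Right, the number of animals of 3 with a peak in the other groups, where many of these regions were called in both genotypes.

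Regions of these 2 sets lay in introns more often than regions called in all 6 animals, and in a CDS less often, which is given as a description. Of the KI-only regions 46.2% had their summit in an intron and 16.9% in a CDS, and of the WT-only regions 47.6% and 13.2%, against 16.3% and 39.0% of the regions called in all 6 animals. Regions called in 3 of the 6 animals across both genotypes, which match the sets in the number of calls, had 37.3% in introns and 24.9% in a CDS. The 5'UTR held 15.4% of the KI-only regions (10 of 65), 3.86% of the WT-only regions (12 of 311) and 5.37% of the regions called in 3 animals of both genotypes. Median fold enrichment was 4.5 in the KI-only and 4.72 in the WT-only regions, beside 5.36 where all 6 animals had a peak. Of the 58 genes with a KI-only region, 43 (74.1%) also held a region called in all 6 animals, and so did 158 of the 221 genes with a WT-only region (71.5%), near the 69.7% of all genes with a region. Both kinds were held by 6 genes, 10.3% of the KI-only genes, beside the 1.79% of all genes that held a WT-only region, and 2.71% of the WT-only genes, beside the 0.47% of all genes that held a KI-only region. They included Nrxn2, Csmd3 and Adarb2.

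**Figure D4:**
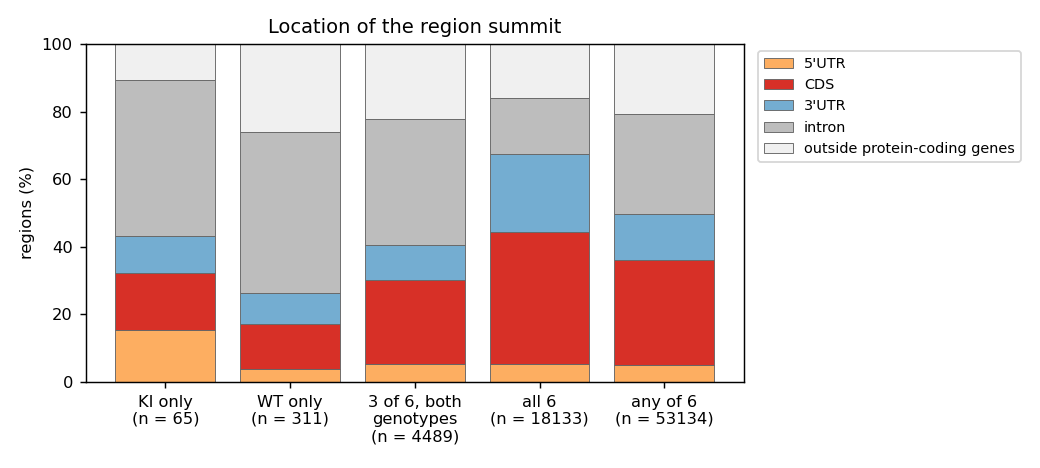
Share of region summits (%) in each part of protein-coding genes or outside them, for regions called only in KI, only in WT, in 3 of the 6 animals across both genotypes, in all 6, and in any of the 6 trained animals. Introns hold 46.2% and 47.6% of the 2 one-genotype sets and 16.3% of the regions called in all 6.

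Genes of the synapse held regions of both sets. KI-only regions stood in 3 of 45 synaptic adhesion genes (6.67%), 3 of 38 presynaptic genes (7.89%) and 0 genes of the glutamate receptor, postsynaptic and GABA synapse lists, beside 58 of all 12350 genes with a region (0.47%). A WT-only region was found in 6 of the adhesion genes (13.3%), 3 of 24 glutamate receptor genes (12.5%), 4 of 36 postsynaptic genes (11.1%), 4 of the presynaptic genes (10.5%) and 2 of 20 GABA synapse genes (10.0%), beside 221 of all genes (1.79%). All 6 KI-only and all 22 WT-only regions in these 5 lists were intronic. The lists were chosen with results of these data known, so the counts are no independent evidence. The genes are also long, with a median span of 165210 bases, beside 27528 bases for all genes with a region. Among genes of over 300 kb, 12 of 61 of the 5 lists (19.7%) and 50 of all 507 (9.86%) held a WT-only region. In genes of up to 100 kb the counts were 3 of 68 (4.41%) and 119 of 9911 (1.2%). Length and list therefore moved together, and the part of length was not tested. With lists of equal peak number, the KI-only counts were 5 in adhesion, 1 in glutamate receptor, 1 in postsynaptic, 3 in presynaptic and 0 in GABA synapse genes, beside 119 over all genes. The WT-only counts were then 6, 2, 2, 1 and 2 in the same order, beside 130 over all genes.

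Intronic regions of Unc13b, a vesicle priming gene (2.71 to 6.72), and Ephb2, an ephrin receptor gene (3.71 to 5.89), were called in the KI animals only. The WT-only glutamate receptor regions included those in Grm3, at 3.96, 3.14 and 3.68 in the WT animals, and Grin1, the obligatory NMDA receptor subunit gene, at 2.69, 4.80 and 3.59. No KI trained animal had a peak in them. GABA-A receptor genes Gabrb2 (4.17 to 4.82) and Gabra3 (3.15 to 4.34) followed the same pattern. Postsynaptic members were Dlg2, the scaffold PSD-93 (4.22 to 6.48), Grip1 (3.47 to 5.90), Lrrtm4 (2.44 to 3.64) and Camk2b, a calcium/calmodulin-dependent kinase subunit gene (1.93 to 2.54). On the presynaptic side, Rims2 and Stx1a, of the release machinery, had 4.2 to 6.28 and 3.6 to 5.72 in the WT animals. Among adhesion genes, Cntnap2 had 4.68, 8.76 and 13.1, Csmd2 3.37 to 6.30 and Cadm2 3.53 to 4.74 in WT animals, all with no call in KI animals. Nrxn2 and Csmd3 had intronic regions of both kinds. Csmd3 had 8.35, 5.35 and 3.33 in KI animals at 1 intronic region, and 3.24, 9.86 and 7.42 in WT animals at another. Kcnma1, a potassium channel gene, had a WT-only intronic region at 1.82 to 5.92, in a list where 2 of 43 genes (4.65%) held one. Camk1d and the m6A reader gene Ythdc1 were the members of the signalling and machinery lists, at 3.20 to 5.00 in an intron and 1.49 to 2.08 in the CDS of WT animals. The immediate-early list, of 37 genes with a region and a median span of 5617 bases, had 0 regions of either kind. Over all genes the shares were 0.47% KI only and 1.79% WT only. Without animals TR-241 and TR-246, 3 immediate-early genes (8.11%) held a WT-only region, beside 7.59% of all genes.

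In mice that were not used to choose these sets, the shares of WT-only regions with a peak were larger in KI when all peaks were used. At 8 months, the WT-only regions were called in 59.8%, 52.1% and 71.1% of cases in the naive KI animals, against 33.4%, 39.2% and 35% in the naive WT animals. The difference of 25.1 percentage points had no overlap between genotypes (exact two-sided permutation test, p = 0.1, the smallest it can give), and it ran opposite to the direction by which the regions had been chosen in the trained animals. In trained 5-month animals the shares were 52.3 ± 6.39% in KI and 24.5 ± 11.1% in WT (SD, n = 3 each, exact p = 0.1), beside 55.8% and 42.4% for all regions with a peak in the 6 animals (exact p = 0.1, n = 3 each). All regions with a peak in the 6 animals were likewise called more in naive KI animals of 8 months, at 67.9 ± 8.09% against 55.2 ± 5.89% in naive WT animals (SD, n = 3 each, exact p = 0.2). The naive KI lists held 37948 to 57293 peaks and the naive WT lists 29783 to 41483, and the part of list length was not tested apart from the next comparison. With the 22601 best peaks of each animal, the naive shares of the WT-only regions were 16.5 ± 3.22% in KI and 15.8 ± 4.5% in WT (exact p = 0.9), and the trained 5-month shares 22.7% in KI and 18.4% in WT (exact p = 0.5). The KI-only regions were called in 68.7 ± 13.1% of cases in naive KI animals and 51.8 ± 19.6% in naive WT animals at 8 months (exact p = 0.4), and in 45.6 ± 2.35% and 16.9 ± 2.66% in trained animals of 5 months (exact p = 0.1). With equal numbers of peaks the naive shares were 28.7 ± 0.888% in KI and 21.0 ± 8.88% in WT, without overlap (exact p = 0.1), and the trained 5-month shares 20.5 ± 5.4% in KI and 11.8 ± 3.2% in WT (exact p = 0.2). The naive shares stand for 19, 19 and 18 of the 65 regions in KI animals, against 7, 17 and 17 in WT animals, so the gap was narrow. The KI-only set includes the Htt intronic region and its neighbour, described below, which had no naive WT call at 8 months. Over the 18 tests of this family the smallest adjusted p was 0.36, and none could pass 0.05.

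**Figure D5:**
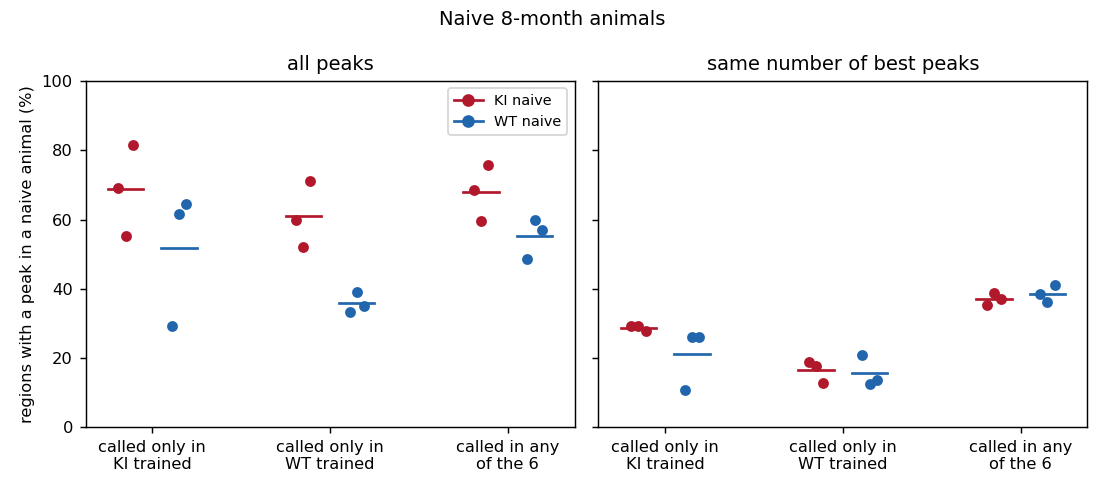
Share of regions (%) with a peak in each naive 8-month animal, for the regions called only in KI trained, only in WT trained, and in any of the 6 trained animals, KI naive in red and WT naive in blue, bars at the mean. With all peaks the naive KI animals lie above the naive WT animals for the WT-only regions, and with equally long lists they overlap there. For the KI-only regions the naive KI animals (27.7 to 29.2%) then lie narrowly above the naive WT animals (10.8 to 26.2%). These shares stand for 18 or 19 regions in KI animals, against 7 or 17 in WT animals, of 65.

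Htt, the gene that carries the expanded repeat in KI mice, held 7 of the regions formed over all 24 animals, on the plus strand of chromosome 5. The region at chr5:35104810-35105427 in an intron, with its summit 649 bases after the start of the gene, had fold enrichments of 7.22, 4.37 and 5.50 in the KI animals and no peak in the WT animals. Naive mice of this age and all mice of 5 months showed the same split, with a peak in each KI animal and in no WT animal. A neighbouring region over the start of the gene, chr5:35103768-35104456, with its summit just outside the annotated gene, was KI only too, at 3.26, 9.28 and 4.2. It had a peak in 2 naive KI and 0 naive WT animals at 8 months, and was singled out after its values had been seen. The expanded tract lies in the first exon of this gene, so genotype and the changed sequence of the allele cannot be told apart here. The region at the end of the gene whose window is printed above was called in both genotypes, at 2.64, 3.12 and 2.17 in KI animals and at 2.76 and 2.41 in the WT animals TR-230 and TR-246. The last 3'UTR region had a peak in 2 animals of each genotype, and the other 4 had calls in at most 1 trained 8-month animal of a genotype.

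Whether the genotype difference changed with training was asked in a fit of the 12 animals of 8 months. Across 16557 regions with a peak in all 12, 0 (0%) had an interaction past an adjusted p of 0.05 in limma, with a smallest adjusted p of 0.32, and 880 (5.31%) had an unadjusted p under 0.05. The 5 with the smallest p are given as values. Upf1, the helicase of nonsense-mediated decay, had a 3'UTR region at 4.85, 6.30 and 5.43 in KI trained animals and 2.89, 2.77 and 2.37 in WT trained animals. In naive animals the order was turned, with 2.73, 2.29 and 3.0 in KI and 4.00, 3.81 and 5.11 in WT (interaction 1.75 ± 0.35 on the log2 scale, limma adjusted p = 0.575). Dnajb6, a chaperone gene known for holding back polyglutamine aggregation, had a 3'UTR region at 2.02, 2.35 and 1.92 in KI trained animals, against 5.73, 3.40 and 4.27 in WT trained animals. Its naive values were 4.75, 2.68 and 5.73 in KI and 1.56, 3.22 and 1.98 in WT, an interaction of -2.0 ± 0.42 (limma adjusted p = 0.575). At the CDS region of Syt9, a synaptotagmin gene, the KI trained animals had 8.2, 7.39 and 10.7 and the WT trained animals 4.74, 2.63 and 5.39. Naive animals had 2.41, 2.97 and 5.15 in KI and 8.48, 6.64 and 6.43 in WT there. The 3'UTR region of Frmd4b and the 5'UTR region of 1700086L19Rik, which were also among the smallest p of the trained comparison, had interactions of -1.73 ± 0.39 and 2.00 ± 0.36. In each of these 5 regions the genotype difference pointed opposite ways in trained and naive animals, as the choice by smallest p favours.

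The authors' deposited table of KI trained against WT trained mice listed 6893 peaks that had passed their own unadjusted threshold, each with a mean log2 level per genotype. The peaks were chosen on these levels, so the levels are described without one. The level was higher in KI at 4030 peaks and in WT at 2863, and the medians were 9.36 and 9.31. Differences of more than 1 were rarer and pointed mostly the other way, with 175 peaks higher in KI and 393 higher in WT. Peak calls, taken with all peaks, followed the levels more often on the WT side. The direction of the levels had been read from these calls, so their accord is no independent evidence. The WT trained lists held 37908 peaks on average, against 33735 in KI, and the part of list length was not tested here. Of the 175, 86 were called in more KI animals and 19 in more WT animals, while of the 393, 7 were called in more KI animals and 295 in more WT animals. The peaks higher in KI by more than 1 lay in introns in 36.0% of cases and those higher in WT in 64.4%, beside 30.5% of all listed peaks. The 5'UTR held 12.0% of those higher in KI and 2.8% of those higher in WT, beside 5.77%. In the naive animals of 8 months, of the 175, 95 were called in more naive KI animals and 13 in more naive WT animals, while 154 of the 393 were called in more KI animals and 51 in more WT animals. Both groups of peaks thus leaned to naive KI animals, whose lists held 37948 to 57293 peaks, against 29783 to 41483 in naive WT animals. The matching share over all 6893 listed peaks was not counted, and the part of list length was not tested.

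Named peaks of that table had to have calls in the same direction by at least 2 animals. The peak of Ppp2r5d, a regulatory subunit gene of protein phosphatase 2A, had an authors' mean level of 7.29 in KI and -0.10 in WT, and fold enrichments of 3.51, 2.5 and 2.7 in the KI animals with no WT call. That value of -0.10 is the lowest in the WT column and was shared by 27 listed peaks. Gipc1, an adaptor gene (7.22 in KI and -0.10 in WT), B4galt2, a galactosyltransferase gene (6.72 and -0.10), the filamin gene Flna (6.31 and -0.10) and the histone chaperone gene Nasp (4.17 and -0.10) also had that floor in WT. Gipc1 and Flna nevertheless had a call in WT animal TR-246, at fold enrichments of 3.89 and 2.41. The Htt intronic peak had authors' mean levels of 11.4 in KI and 5.76 in WT. Camta1, a calmodulin-binding transcription factor gene, had 8.11 and 2.60, Sorcs2, a receptor gene for proneurotrophins, 6.24 and 3.91, Smad1 7.21 and 4.88, and the sodium-proton exchanger gene Slc9a5 6.70 and 4.44, in KI and in WT.

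On the WT side the named peaks were mostly intronic. Actr3b, of an Arp2/3 complex subunit, had authors' mean levels of 2.36 in KI and 7.49 in WT, and was called in 0 KI animals and at 3.20, 3.09 and 3.77 in the WT animals. Cdh9, a synaptic cadherin gene, had 2.74 in KI and 7.07 in WT, with fold enrichments of 5.58, 5.84 and 4.36 in the WT animals only. The CDS peak of Npas3, a neuronal transcription factor gene, had 1.82 in KI and 5.66 in WT, and 6.80, 9.55 and 5.70 in the WT animals. Mab21l2 had 3.82 in KI and 7.20 in WT, Csmd3 3.68 and 6.68, and Sfxn5, a mitochondrial carrier gene, 1.68 and 6.72. All of these had 3 WT calls and 0 KI calls. Gm9766 (-0.06 in KI and 6.10 in WT), the polyadenylation factor gene Fip1l1 (0.68 and 6.35), the shared start of Ewsr1 and Rhbdd3 (4.11 and 7.33) and Cnot4 (3.61 and 6.80) had 1 KI call each. Of the synaptic adhesion genes with a listed peak, 1 of 31 had one higher in KI by more than 1 and 10 of 31 had one higher in WT, beside 157 and 332 of 4140 genes. The counts in that order were 1 and 5 of 20 glutamate receptor genes, 1 and 7 of 25 postsynaptic genes and 0 and 0 of 19 immediate-early genes. They were 2 and 4 of 23 presynaptic genes and 1 and 4 of 13 GABA synapse genes. The part of gene length in these counts was not tested.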

How the data were processed

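Hippocampal RNA of single animals was fragmented and pulled down with an m6A antibody, and the authors aligned the reads to mm9 with STAR 2.7.3a, kept unique reads, removed repeats, and called narrow peaks of each animal against its own input with MACS2 2.2.6. The deposited lists give, per peak, a fold enrichment (a ratio to input), -log10 p, -log10 q, an integer score, and a summit offset, which is another measure per the file headers of that format. The deposited comparison table, made by the authors with DiffBind 2.8.0 and bedtools, gives mean levels on a log2 scale per genotype, with fold changes and p-values that were not used, and lists only peaks with the authors' p under 0.05. Its header, the same in all the deposited tables, names naive groups. The series description assigns this table to the trained groups. Its direction was read from the calls of the trained animals, so accord between calls and levels is no independent evidence. Regions were formed by merging overlapping peaks of the 24 m6A-IP lists, with the highest fold enrichment per animal, log2 transformed and centred on the animal's median over the regions tested. A region's summit was placed in GENCODE vM1 protein-coding genes. Read depth is unknown, and library precision enters only through the spread between animals.

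Fits used limma 3.58.1 in R 4.3.3 (empirical Bayes with trend, Benjamini-Hochberg adjustment), and the fit of the 6 animals was tested on simulated data. There every region had the same spread, the median of the real regions, unlike the data. Planted log2 differences of 0.5, 1 and 2 were found in 4%, 40% and 100% of cases, with 3 false calls among 18133 regions. Shares and counts per animal were compared by exact two-sided permutation tests in SciPy 1.17.1. Members and gene lists were chosen with earlier results of these data known. Named regions were the 5 of smallest p in each direction, the 10 one-genotype regions per direction in protein-coding genes with the highest lowest fold enrichment, 10 table peaks per direction with the largest level difference and calls the same way by at least 2 animals, 5 interaction regions, up to 4 one-genotype regions per list, and all of Htt, with 1 region per gene. Some regions that the rule names are not reported here. Alternatives were no centring, quantile normalization, mean enrichment, no trend, -log10 q of at least 3, regions of the 6 animals, overlap by at least 50% of a peak or region, equally long lists, a 51-base window for GGAC, peaks in at least 2 of 3 animals per genotype, the 12-animal fit and leaving animals out. Leaving out animals TR-241 and TR-246, and equal lists for the shares in other animals and for the gene lists, were chosen after seeing the data. All 24 lists carry the same sequencing run and lane, and no other batch is given in the sources used here.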

Additional observations from a re-analysis of the deposited data

How the results depend on the processing

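No paired analysis was possible because the replicate labels are animal numbers that the genotypes do not share. The limma count of regions past the threshold stayed at 0 under all alternatives run, between KI and WT trained animals (702 to 1343 at an unadjusted p under 0.05) and for the interaction. The 15 named results of those fits kept their direction in 220 refits, and the lowest limma adjusted p in any was 0.223. Those regions were chosen by smallest p on the same animals, which favours a kept direction. The refits are therefore no independent evidence. The one-genotype counts were 65 KI only and 311 WT only. With equally long lists they were 160 and 163, without animals TR-241 and TR-246 they were 668 and 1228, and without 1 animal they ranged from 147 (without WT animal TR-220) to 289 (without KI animal TR-241) and from 558 (without KI animal TR-294) to 1244 (without WT animal TR-220), each of the 6 raising both counts, since fewer animals then had to be in accord. With -log10 q of at least 3 or regions of the 6 animals they were 73 and 300, and 73 and 334. The KI minus WT difference in peaks, -4170, stayed negative (-6660 to -1350 without 1 animal). Differences in shares, none past the threshold, turned in places. The 3'UTR difference of 0.00514 points was -0.269 with equal lists, -1.08 without TR-241 and TR-246 and -0.59 to 1.07 without 1 animal (negative without KI animal TR-241, WT animal TR-230 or WT animal TR-246). The intron difference of -3.0 points was 0.228 without TR-241 and TR-246, and ranged from -5.53 to 0.552 without 1 animal, with 0.552 when KI animal TR-241 was left out. The CDS difference of 2.79 points ranged from -0.629 (without KI animal TR-241) to 5.31, the 5'UTR difference of 0.207 from -0.0802 (without KI animal TR-294) to 0.564, and the GGAC difference of 0.792 from -0.23 (without WT animal TR-246) to 1.63. The cause was not tested.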

Other observations

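Per animal, the transcript parts held overlapping shares of summits in both genotypes, with KI animal TR-241 farthest from the rest. Introns held 32.5%, 20.3% and 29.5% of genic summits in KI trained animals TR-231, TR-241 and TR-294, against 29.7%, 31.8% and 29.8% in WT trained animals TR-220, TR-230 and TR-246. The CDS held 37.9%, 49.7% and 41.1% in the KI animals, against 38.9%, 39.3% and 42.1% in the WT animals, and the 3'UTR held 22.4 to 24.2% in KI and 22.0 to 25.3% in WT animals. None of the 4 shares passed the threshold (exact two-sided permutation tests, adjusted p = 0.933 to 1.0, n = 3 each). GGAC stood in 42.4 ± 1.10% of summit windows in KI animals and 41.6 ± 1.89% in WT animals (SD, n = 3 each, exact two-sided permutation test, p = 0.6), beside 25.9% and 24.9% on the opposite strand.

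Of 47 listed genes of oxidative phosphorylation, 14 held a region with a peak in the 6 animals. The matching share of all annotated genes was not counted. A peak was found in 8 to 10 of these genes per KI trained animal and in 6 to 9 per WT trained animal. Among the 12350 genes with a region, the counts were 10070 to 10428 and 10311 to 10946. Of the oxidative phosphorylation regions, 6 were tested, with none called. Of interneuron markers, Adarb2 held an intronic region called only in KI, at 5.33, 7.78 and 4.63, and another called only in WT, at 5.31, 5.40 and 5.71. Of the 10 interneuron markers with a region, 1 held a KI-only and 2 held a WT-only region, beside 0.47% and 1.79% of all genes. Prox1, the defining transcription factor gene of dentate granule cells, had an intronic region called only in WT trained animals, at 2.44, 5.01 and 2.82. It was the 1 such gene among 11 dentate gyrus markers with a region (9.09%), beside 1.79% of all genes. Of the naive mice at 8 months, 2 KI and 0 WT animals had a peak there. With equally long lists, these markers had 0 genes with a WT-only region and 1 with a KI-only region.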
